A study of Homo sapiens with 13 samples.

Results

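The 9 genes described here belong to the machinery by which a cell senses DNA and RNA in its cytoplasm: CGAS and IFIH1 (sensors), STING1 and MAVS (adaptors), TBK1 (kinase), IRF3 and IRF1 (transcription factors), and CCL5 and CXCL10 (chemokines). They were picked by name, without a rule on measured values. All 9 were found among the 20007 protein-coding genes of GENCODE release 44 on hg38. Accessible chromatin was mapped by ATAC-seq, which relies on a transposase (Tn5) that inserts sequencing adapters where DNA is open. The cells were H82 and H146, human cell lines from small cell lung cancer (SCLC), of which H82 is of the NEUROD1 subtype (SCLC-N) and H146 of another. The untreated cells gave 3 H82 and 4 H146 libraries, and 3 libraries of each line came from cells kept for 14 days in 100 nM FHD-286, which blocks SMARCA4 and SMARCA2, the ATPases of the SWI/SNF chromatin remodeller. The deposited values were 1 list of accessible regions (an atlas) per line, pooled by the authors over the untreated and treated libraries, with a start and an end for each region and no height or library.

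Each line therefore gave 1 value per locus. The spread between libraries, the depth of each library and the effect of FHD-286 could not be measured, and no difference below carries a test. Calling in a single library was enough for a region to be listed. More accessible sequence in H82 could come from untreated cells, treated cells or both, and each line is a single cell line. The H82 atlas held 206927 regions over 167 Mb of the nuclear chromosomes, and the H146 atlas 174093 regions over 139 Mb, so every locus is set beside the values of all protein-coding genes. The neuroendocrine marker genes INSM1, SYP and CHGA were accessible at the TSS (transcription start site, 1 kb to either side) in both lines, and NEUROD1 was so in H82 only. Of the leukocyte markers, PTPRC, CD3E and LYZ had no TSS region in either line. All 3 fibroblast and endothelial markers had one in both.

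In the cell, cGAS (the product of CGAS) binds DNA in the cytoplasm and makes cGAMP, a cyclic dinucleotide that activates STING on the endoplasmic reticulum. IFIH1 encodes MDA5, which binds long double-stranded RNA and signals through MAVS on mitochondria. Both routes meet at the kinase TBK1, which phosphorylates IRF3. IRF3 drives type I interferon genes, and IRF1, CCL5 and CXCL10 are among the genes that interferon or the sensors induce. SCLC is known for low expression of STING and of antigen presentation genes in its neuroendocrine form.

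Of the 9 genes, RefSeq (GRCh38.p14) promoter sequences were at hand for 5, namely IFIH1, MAVS, TBK1, IRF1 and CXCL10. CGAS, STING1, IRF3 and CCL5 had no entry. The 250 bases before the TSS are shown for an interferon-induced chemokine with no region at its promoter in either line (CXCL10), and for an RNA sensor and a transcription factor whose promoters were covered in full in both lines (IFIH1 and IRF1). All 3 are on the minus strand and read 5′ to 3′ towards the TSS. Capitals mark matches on either strand to the ISRE core (GAAA, any 2 bases, GAAA, read by interferon regulatory factors), GAS (TTCNNNGAA, read by STAT dimers), the kappa B consensus (read by NF-kappa B), the GC box (GGGCGG, read by SP1) or AP-1 (TGANTCA). In IFIH1 the first capital run is a pair of overlapping ISRE cores. The sites lie at chr4:76023498-76023747 (CXCL10), chr2:162318685-162318934 (IFIH1) and chr5:132490774-132491023 (IRF1).
CXCL10 promoter: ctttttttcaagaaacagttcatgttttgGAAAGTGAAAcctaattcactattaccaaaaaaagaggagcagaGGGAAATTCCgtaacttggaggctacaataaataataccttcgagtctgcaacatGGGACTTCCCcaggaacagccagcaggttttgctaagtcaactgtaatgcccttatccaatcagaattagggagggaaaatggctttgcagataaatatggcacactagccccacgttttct
IFIH1 promoter: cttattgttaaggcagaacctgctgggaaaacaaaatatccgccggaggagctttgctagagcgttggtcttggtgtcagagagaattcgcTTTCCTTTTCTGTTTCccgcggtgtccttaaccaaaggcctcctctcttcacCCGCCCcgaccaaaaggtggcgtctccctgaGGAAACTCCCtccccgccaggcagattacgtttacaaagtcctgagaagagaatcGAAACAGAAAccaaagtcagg
IRF1 promoter: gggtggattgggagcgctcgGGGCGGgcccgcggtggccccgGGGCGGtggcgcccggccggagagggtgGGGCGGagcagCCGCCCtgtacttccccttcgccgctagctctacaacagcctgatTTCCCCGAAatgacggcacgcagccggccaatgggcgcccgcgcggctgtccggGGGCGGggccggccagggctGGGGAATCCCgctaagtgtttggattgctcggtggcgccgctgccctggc

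The 300-base promoters, which reach 50 bases past the TSS, differed in the motifs they held. CXCL10 had 1 ISRE core, at -221 to -212 from the TSS, and 2 kappa B matches. IFIH1 had 3 ISRE cores, the nearest at -21 to -12, with 1 kappa B match and 1 GC box. IRF1 had 1 GAS match, 1 kappa B match and 5 GC boxes, MAVS had 3 GC boxes, and TBK1 had none of the 5 motifs. AP-1 was found in none of the 5 promoters. Over 15345 protein-coding promoters of the same length, the ISRE core was present in 3.18%, GAS in 6.95%, the kappa B consensus in 6.35%, the GC box in 59.2% and AP-1 in 5.74%. A match describes the sequence and does not show that a factor binds there.

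The other sequence shown is from the region listed in H82 and absent from H146 at the TSS of CGAS. The 300 bases of it nearest the TSS were taken from hg38, at chr6:73451527-73451826 on the minus strand, 471 to 770 bases after the TSS. Every base is exonic in at least 1 annotated transcript and outside any annotated UTR. Capitals mark CG pairs, of which there are 30, and the ratio of observed to expected CG pairs was 0.895.
CGAS region: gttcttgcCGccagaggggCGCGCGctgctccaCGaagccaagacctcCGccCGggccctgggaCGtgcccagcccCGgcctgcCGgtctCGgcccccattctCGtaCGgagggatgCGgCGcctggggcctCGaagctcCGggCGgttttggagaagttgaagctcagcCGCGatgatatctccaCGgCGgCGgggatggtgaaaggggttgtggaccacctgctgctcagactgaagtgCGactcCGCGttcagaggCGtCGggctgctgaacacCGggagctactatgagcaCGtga

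At the level of the TSS, the 9 genes fell into 3 patterns. IFIH1, MAVS, TBK1 and IRF3 carried a region less than 1 kb from the TSS in both lines, CGAS and STING1 carried one in H82 and not in H146, and IRF1, CCL5 and CXCL10 had none in either line. No gene had one in H146 alone. Among all protein-coding genes, a TSS region was present in both lines at 75.4%, only in H82 at 5.09% and only in H146 at 1.86%, and it was absent from both at 17.7%. Here the TSS is the 5′ end of the gene, and for IRF1 that choice decided the pattern. Its 5′ end belongs to an upstream transcript, and the main transcript (Ensembl canonical, IRF1-201) begins 17946 bp further on, where both lines had a region. With the TSS of the main transcript, an alternative added after the data were seen, 5 genes had a region in both lines, CGAS and STING1 in H82 only, and CCL5 and CXCL10 in neither, beside 77.8% of all genes in both and 4.74% in H82 only.

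**Figure D1:**
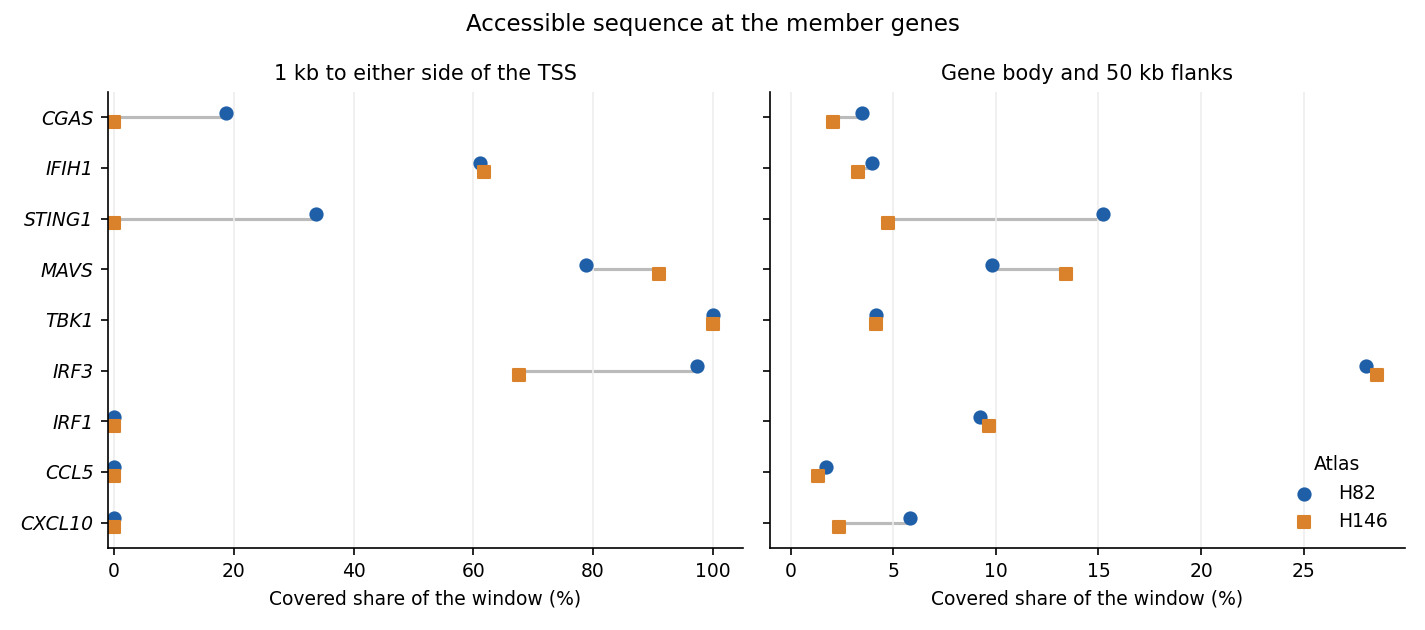
Covered share (%) of the 2 kb around the TSS (left) and of the gene body with 50 kb to either side (right) for the 9 genes, with 1 point per atlas (circles, H82; squares, H146) and no error bars because each line has 1 value. CGAS and STING1 stand at 18.7% and 33.7% in H82 and at 0% in H146 around the TSS, and STING1 also has the widest separation over the whole window, 15.2% against 4.75%.

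CGAS lies on chromosome 6 from 73413515 to 73452297 on the minus strand. H82 had 1 region in its gene body, 374 bp wide and 471 to 844 bp after the TSS, and H146 had none. The region is narrow beside those of another class: of the genes with a TSS region in both lines, 2.27% had a narrower one in H82, where the median was 1832 bp. At the other innate sensing genes with a TSS region in H82 only, described below, widths ran from 200 bp (OAS2 and IFNAR2) to 1755 bp (AIM2). In H146 the stretch without a region ran for 67.9 kb, from -8970 to 58903 bp relative to the TSS, beyond the end of the gene. H82 had 3 regions inside that stretch, which covered 1761 bp. The widest, 972 bp, lay over the 5′ ends of DDX43 and OOEP, about which H146 also had no region within 1 kb.

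Over the CGAS gene body and 50 kb to either side, H82 had 8 regions and a covered share of 3.48%, and H146 had 5 regions and 2.06%. Both values were low, since 19.9% of protein-coding genes had a lower share in H82 and 12.8% in H146. Of the 8 H82 regions, 4 overlapped H146, among them the region of 1164 bp at the TSS of MTO1, 9281 bp upstream, which was 1167 bp wide in H146. The difference of 1.42 percentage points was exceeded by 40.3% of all genes. The surroundings moved the same way: in the 1 Mb to either side without this window, H82 covered 2.70% and H146 1.45%, a ratio of 1.86 against 1.69 in the window. With regions of at least 500 bp only, CGAS had no TSS region in either line.

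STING1, on chromosome 5 from 139475533 to 139482935 on the minus strand, differed most among the 9 genes. H82 had 4 regions over its 7403 bp gene body, which covered 65.5% of it, and H146 had none. The widest was 2690 bp and began 326 bp after the TSS, or 149 bp after the TSS of the main transcript. A gene body difference as large as this 65.5 points was exceeded by 0.390% of protein-coding genes. H146 had no region from -30555 to 20016 bp relative to the TSS, a stretch of 50.6 kb in which H82 had 9 whole regions over 8907 bp.

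The H82 regions at STING1 continued on both sides of the gene. Of 17 in the window, 12 had no overlap in H146, and these summed to 12001 bp. They included the regions at the 5′ ends of SMIM33, DNAJC18 and UBE2D2, where H146 had none within 1 kb. At the TSS of the main transcript, DNAJC18 and UBE2D2 had a region in both lines and SMIM33 in H82 only. H146 had 7 regions, of which 5 overlapped H82. The others were 1 of 1278 bp in an intron of ECSCR and 1 of 255 bp near the ECSCR TSS, where H82 had none. The covered share of the window was 15.2% in H82 and 4.75% in H146, and 7.98% of all genes had a share at least 10 points larger in H82.

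The STING1 difference was not limited to the gene. In the 1 Mb to either side without the window, H82 covered 15.1% and H146 6.12%, a difference of 8.93 points that 5.11% of genes exceeded. In bins of 100 kb out to 2 Mb from the TSS, H82 had the larger share in 37 of 40 bins, with medians of 8.61% and 3.91%. At the other genes of the set this bin count ran from 11 of 40 (CXCL10) to 33 of 40 (IFIH1). It was not taken over all protein-coding genes. The TSSs of the 22 other protein-coding genes in the 1 Mb flanks carried a region in both lines at 15 genes, only in H82 at 6, only in H146 at 0 and in no line at 1, and by the main transcript at 16, 5, 0 and 1. The ratio of the lines was 2.46 in the flanks and 3.20 in the window. How much of the STING1 difference belongs to the gene and how much to the wider stretch of chromosome 5 cannot be told apart with 1 value per line. The number of DNA copies at a locus can also change how many regions are called, was not given in the sources used here, and its part in these shares was not tested.

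**Figure D2:**
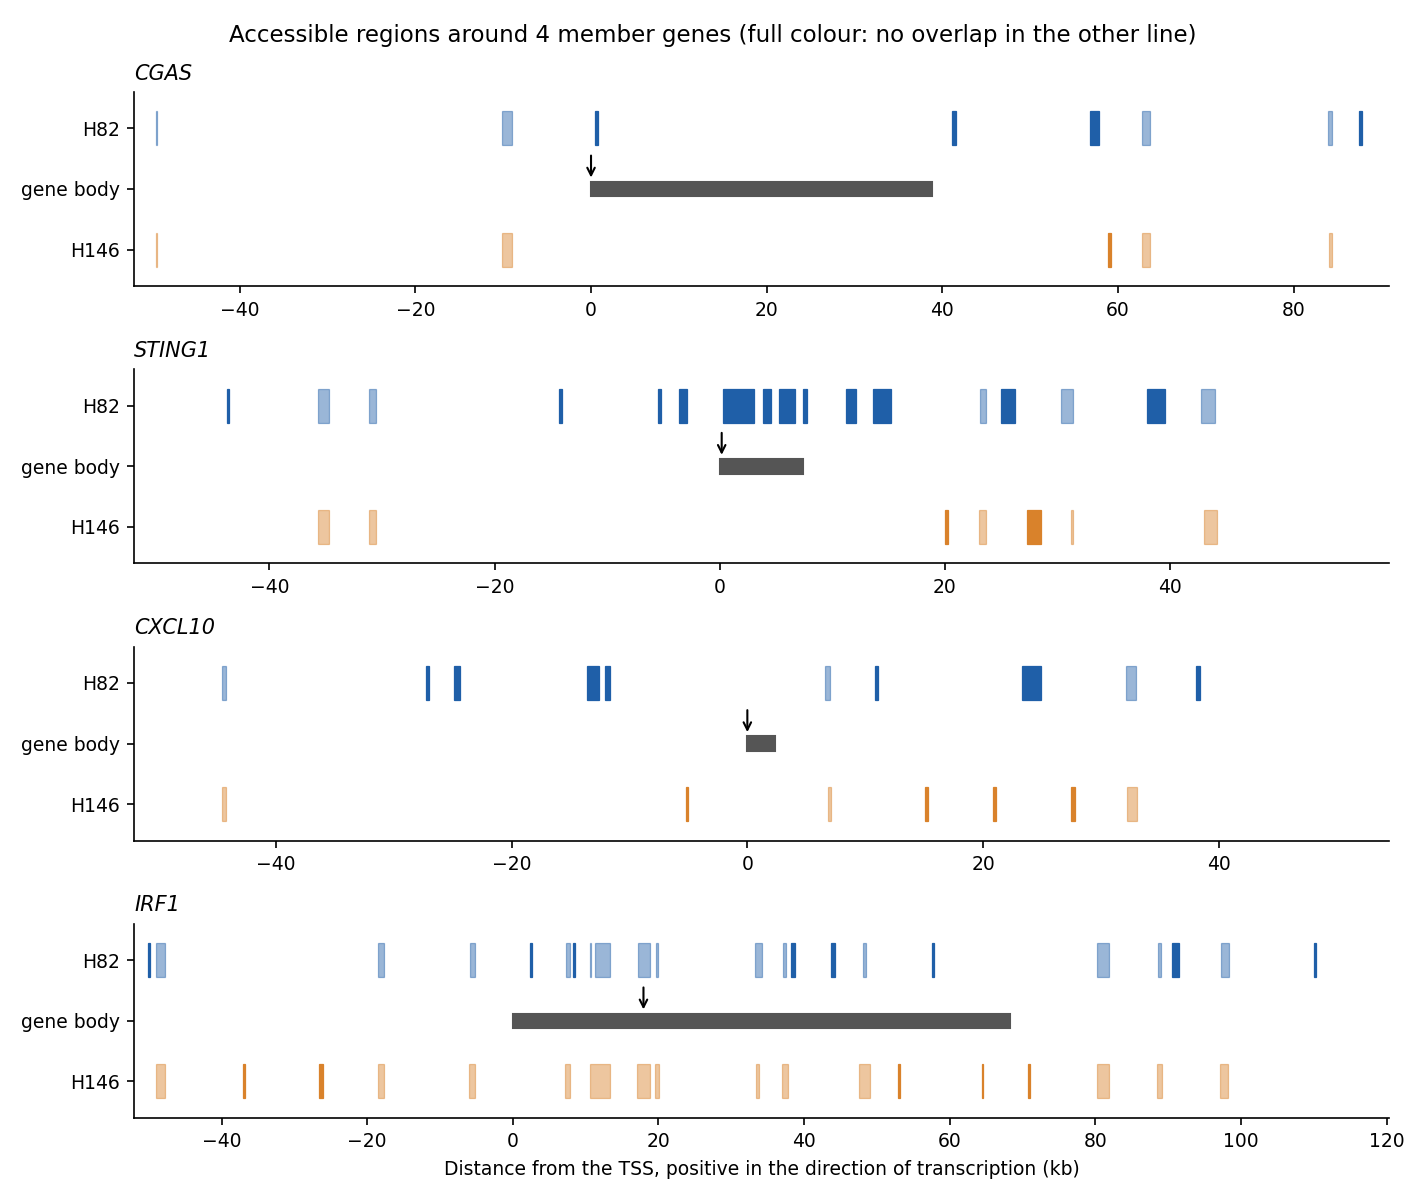
Accessible regions of H82 (blue, upper row of each panel) and H146 (orange, lower row) around CGAS, STING1, CXCL10 and IRF1 by distance from the TSS in kb, positive in the direction of transcription, with the gene body in grey and an arrow at the TSS of the main transcript. Full colour marks regions with no overlap in the other line, pale colour those that overlap. The 4 H82 regions over the STING1 gene body have no counterpart in H146, whereas the region under the IRF1 arrow is present in both.

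IFIH1 encodes the RNA sensor MDA5 and lies on chromosome 2 from 162267074 to 162318684 on the minus strand. Its TSS region was nearly identical between the lines, 1222 bp in H82 and 1238 bp in H146 with 1213 bp in common. The same region covers the TSS of GCA, which starts 156 bp away on the other strand, so the region cannot be assigned to either gene. The 3 ISRE cores of the IFIH1 promoter lie inside it. The window held 10 regions in H82 and 9 in H146, of which 6 of each overlapped, with covered shares of 3.95% and 3.30%. Inside the gene body beyond the TSS region, the lines shared 1 intronic region and had 1 (H82) and 2 (H146) of their own, all at most 348 bp wide.

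MAVS, the mitochondrial adaptor of the RNA sensors, lies on chromosome 20 from 3846799 to 3876123 on the plus strand. Its covered share was larger in H146, at 13.4% against 9.81%, and 5.33% of all genes had a lower difference than its -3.59 points. All 14 H82 regions of the window overlapped H146, and H146 had 5 more. The overlapping regions were mostly wider in H146, in 10 of 14 pairs, with a median H82 to H146 width ratio of 0.777. Over the whole atlases, 64912 of 113588 such pairs were also wider in H146, with a median ratio of 0.962. The TSS region of 2062 bp in H146 contained that of H82, which measured 1578 bp, in full. In the 1 Mb flanks H146 was also larger, at 7.67% against 6.55%.

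TBK1, the kinase on which both routes converge, lies on chromosome 12 from 64452090 to 64502114 on the plus strand. The 2 kb around its TSS were fully covered in both lines, by 2936 bp of continuous region in H82 and by 2107 bp in H146. The rest of its 50025 bp gene body held no region in either line. The covered share of the window was 4.17% in both, from 5 regions in H82 and 7 in H146, and all 5 of H82 overlapped H146. IRF3, on chromosome 19 from 49659569 to 49665875 on the minus strand, had the highest covered share of the 9 genes, 28.0% in H82 and 28.6% in H146, in a stretch dense with genes.

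At the IRF3 TSS the H82 region reached further on both sides, from -946 to 2335 bp against -351 to 1817 bp in H146. It measured 3282 bp against 2169 bp in H146, contained the H146 region, and covered 97.3% of the 2 kb around the TSS against 67.6%. The difference of 29.7 points was exceeded by 6.37% of genes. The same region spans the TSS of BCL2L12, 733 bp away on the other strand, so it is shared by both genes. The widest regions of the window were one of 5520 bp in H82, over the TSS of PRMT1, and one of 7997 bp in H146, over the TSSs of RRAS and SCAF1, each overlapped by the other line. Of the 14 IRF3 pairs that overlapped 1 to 1, 5 had the same width to the base, beside 19328 of 113588 over the whole atlases.

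IRF1, an interferon-induced transcription factor, lies on chromosome 5 from 132440440 to 132508719 on the minus strand. At its main transcript TSS the H82 region of 1646 bp lay wholly within the H146 region of 1839 bp. The widest region of the window in each line ended 13359 bp after the 5′ end of the gene, upstream of that TSS, and spanned 2062 bp (H82) and 2764 bp (H146). The gene body carried 13 regions in H82 against 9 in H146, with 12.2% and 13.1% of it covered. The GAS match of the IRF1 promoter lies under the TSS region of both lines. Over the window the shares were 9.22% and 9.68%. IRF1 and STING1 are on the same chromosome, and in the 1 Mb flanks of IRF1 the lines were closer, with 5.01% in H82 and a share 0.811 points lower in H146.

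The chemokine genes had little accessible sequence at their starts in either line. CCL5 (RANTES), on chromosome 17 from 35871491 to 35880793 on the minus strand, had no region within 1 kb of its TSS, and the nearest one lay 8967 bp upstream in H82 and 8868 bp upstream in H146. A region of 650 bp in H82, absent from H146, overlapped the 3′ end of the gene. The window was among the least covered of the set, at 1.70% in H82 and 1.32% in H146, with 4 regions in each line. Only 7.34% and 7.57% of all genes had lower shares.

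CXCL10 (IP-10), on chromosome 4 from 76021118 to 76023497 on the minus strand, had no region in its gene body or within 1 kb of its TSS in either line. The nearest was 6552 bp downstream in H82 and 4993 bp upstream in H146. The ISRE core and the kappa B matches of its promoter therefore lay outside the listed regions of both lines. The window nevertheless differed, with 10 regions and 5.81% in H82 and 7 regions and 2.38% in H146. Of the 10 H82 regions, 7 had no overlap in H146. The widest of these was 1624 bp and lay 23258 to 24881 bp after the TSS, between SDAD1 and CXCL9. Another of 1050 bp lay at -13637 to -12588 bp, in an intron of ART3. It ends 15 bp before the TSS of the main CXCL11 transcript.

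The wider flanks of CXCL10 had nearly equal shares. They were covered at 3.98% in H82 and 3.97% in H146, and H82 had the larger share in 11 of 40 bins out to 2 Mb. CXCL9, the neighbouring chemokine gene 15988 bp away, had a region of 221 bp within 1 kb of its TSS in H146 only. CXCL11 had none at its 5′ end, 17918 bp from the CXCL10 TSS, in either line. Its main transcript begins 5345 bp further on, and there H82 had regions of 412 bp and 1050 bp within 1 kb and H146 had none. For CCL5 the flanks were also close, at 6.08% and 5.84%.

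**Figure D3:**
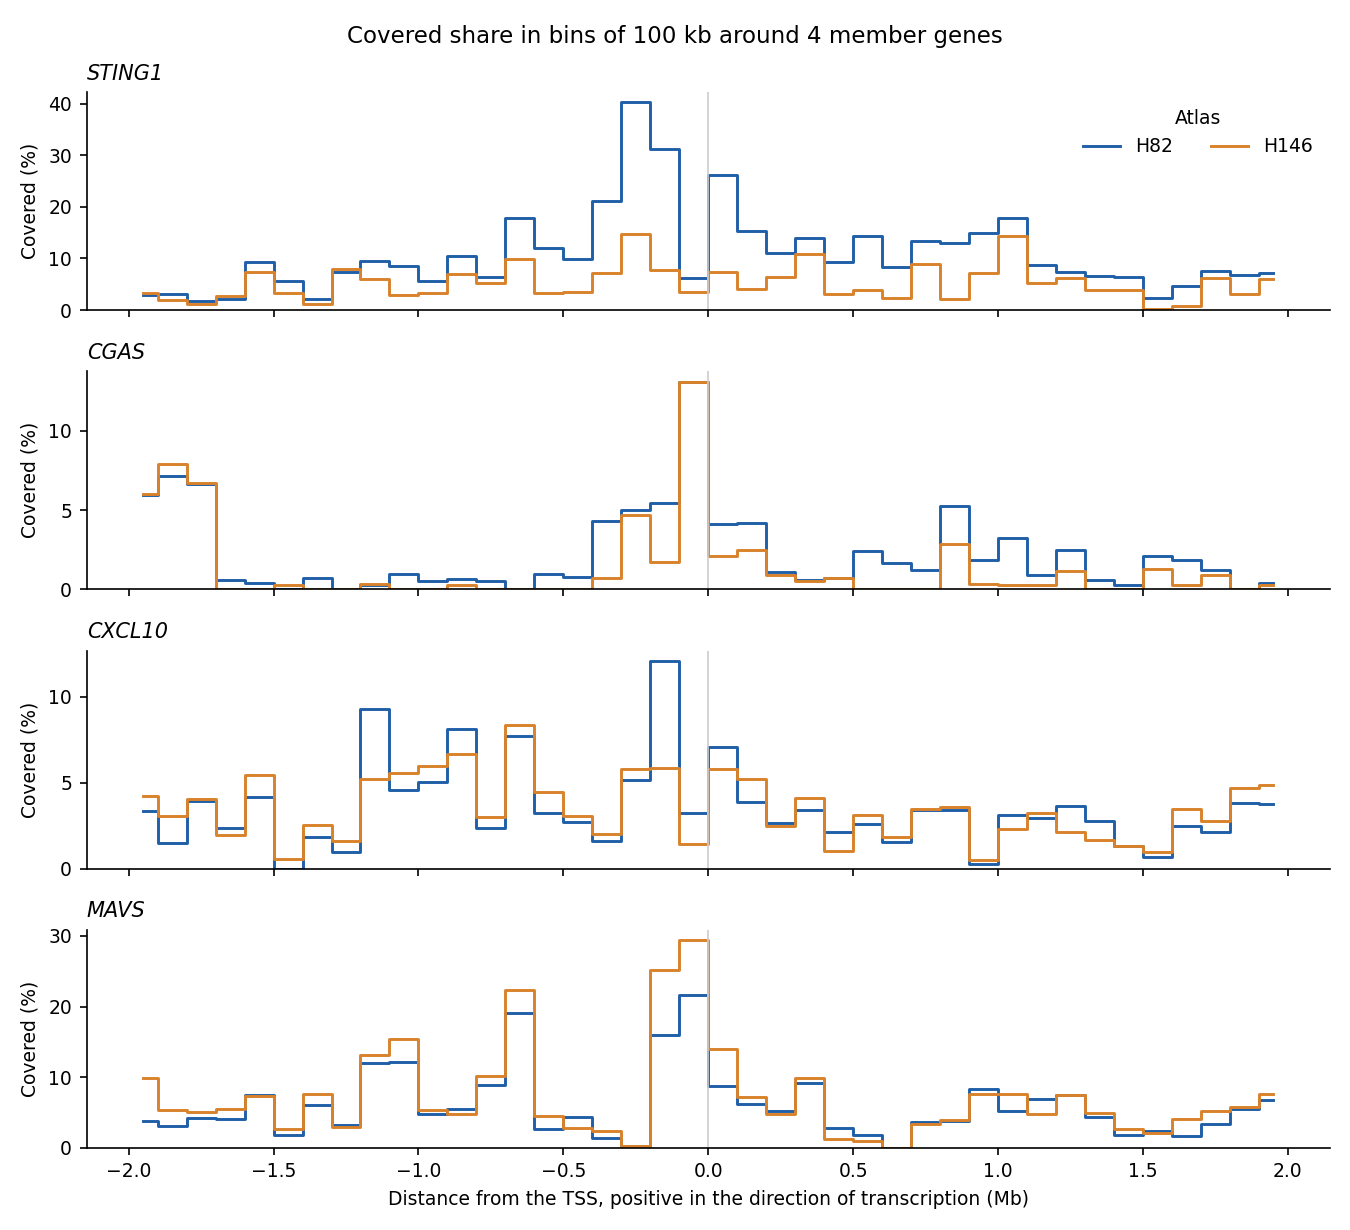
Covered share (%) in bins of 100 kb out to 2 Mb on either side of the TSS of STING1, CGAS, CXCL10 and MAVS, by distance in Mb in the direction of transcription, for the H82 (blue) and H146 (orange) atlases. H82 is the higher line in 37 of 40 bins around STING1 and 31 of 40 around CGAS, against 11 of 40 around CXCL10 and 12 of 40 around MAVS. Among the genes not drawn, the count was 33 of 40 for IFIH1, 29 for CCL5, 28 for IRF1, 18 for TBK1 and 15 for IRF3.

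Over the 9 windows together, 5 genes had the larger covered share in H82 (CGAS, IFIH1, STING1, CCL5 and CXCL10) and 4 in H146 (MAVS, TBK1, IRF3 and IRF1). For TBK1 the difference was -0.0033 points. Among all genes, 63.7% had the larger share in H82. The median difference of the 9 was 0.376 points, and that of all protein-coding genes 0.731. A count of 5 of 9 is close to the share of all genes. It also depended on the setting, from 4 to 7 of 9, and the median from 1.18 points with flanks of 10 kb to -0.0226 when H82 shares were divided by the ratio of covered bases. STING1 was the gene farthest above the median of all genes and MAVS the one farthest below it.

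**Figure D4:**
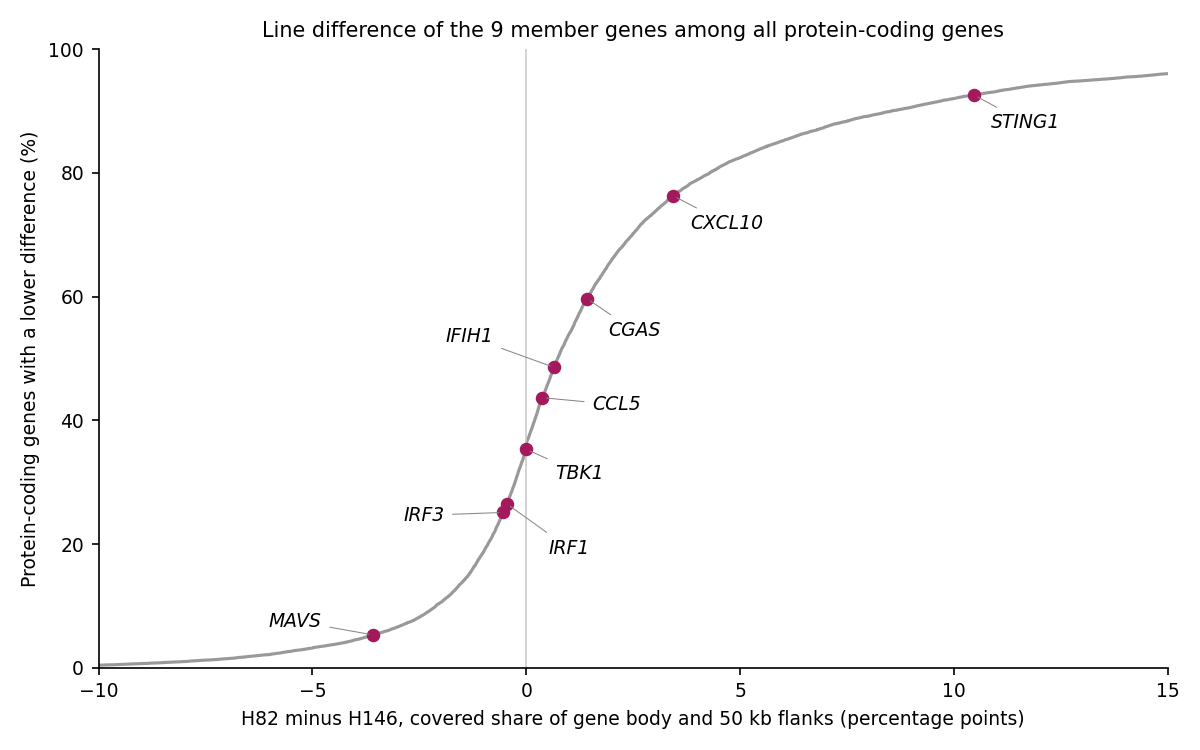
Difference in covered share of the gene body and 50 kb flanks, H82 minus H146 in percentage points, against the percentage of all 20007 protein-coding genes with a lower difference (grey curve); points are the 9 genes, and 872 genes lie beyond the axis. STING1 sits at 10.5 points with 92.6% of genes below it and MAVS at -3.59 points with 5.33% below it, and the other 7 lie between -0.54 and 3.43 points.

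The regions of the 9 windows numbered 109 in H82 and 96 in H146, with median widths of 647 bp and 616 bp against 482 bp and 499 bp over the whole atlases. Of the H82 regions, 69 of 109 overlapped H146 (63.3%, 95% Wilson interval 53.9% to 71.8%), beside 59.3% in the atlas. Of the H146 regions, 67 of 96 overlapped H82 (69.8%, interval 60.0% to 78.1%), beside 70.5%. The intervals cover counting error only and treat all regions as independent, which regions of the same window need not be. Of the 40 H82 regions without overlap, 12 lay in the STING1 window and none in those of MAVS and TBK1. By the 5′ ends of genes, 6 H82 and 4 H146 regions were within 1 kb of the TSS of one of the 9 genes. A further 15 and 13 lay at the TSS of another protein-coding gene, and 88 and 79 at neither. The 88 and 79 include the regions at the main transcript TSS of IRF1, so not all of them lie away from promoters. The same count was not made over the whole atlases. Of 65 pairs that overlapped 1 to 1, 23 were wider in H82, 35 in H146 and 7 had equal widths, while 25.8% of such pairs over the whole atlases were wider in H82.

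The genes with no TSS region in either line had the lowest density of CG pairs around the TSS. In the 2 kb around the TSS, the ratio of observed to expected CG pairs was 0.845 at TBK1, 0.761 at CGAS, 0.630 at MAVS and 0.509 at IFIH1, with IRF3 just below IFIH1. It was 0.259 at STING1, 0.209 at CCL5, 0.182 at CXCL10 and 0.121 at the 5′ end of IRF1, whose main TSS had 0.740. Over all genes the median was 0.675 where both lines had a TSS region, 0.313 for H82 only, 0.247 for H146 only and 0.222 for neither. Of the genes accessible in H82 only, STING1 was near the median of its class. CGAS was far above it, and 79.2% of all genes had a lower ratio than CGAS.

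The 81 other genes of innate sensing were grouped by role and counted in the same way, beside the 75.4% of all genes with a TSS region in both lines. Of 10 DNA sensors and DNA clearance genes, 6 had one in both lines, as did 9 of 13 RNA sensors and effectors. Of 12 adaptors, kinases and ubiquitin ligases, 11 had a TSS region in both lines, as did 10 of 12 transcription factors. For interferons, receptors and receptor kinases the count was 7 of 12, and for interferon-stimulated genes and chemokines 12 of 22. The groups are small, and differences between roles were not tested. The 4 genes of the interferon and receptor group with no TSS region were IFNB1, IFNA1, IFNG and IFNL1, which all encode interferons. In total 55 of the 81 genes had a TSS region in both lines and 18 in neither, against 75.4% and 17.7% of all protein-coding genes. Of the other 8, 5 had one only in H82 and 3 only in H146, against 5.09% and 1.86%.

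**Figure D5:**
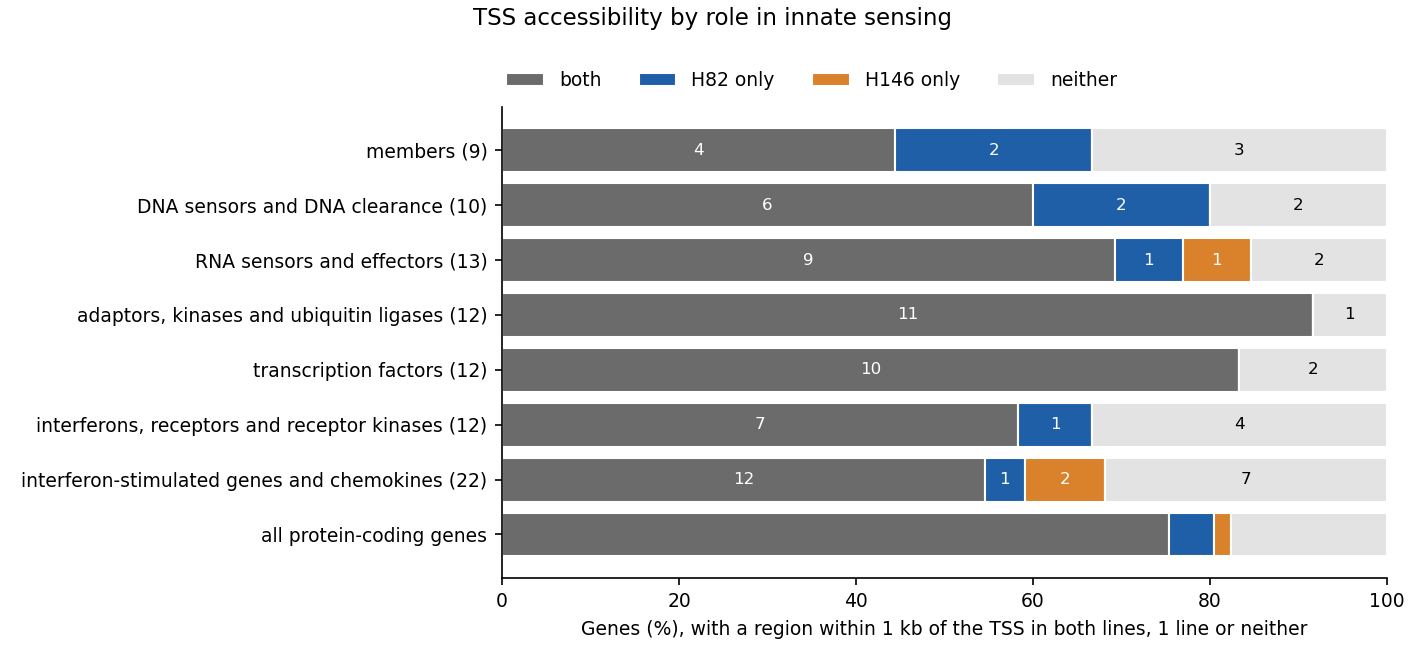
Share of genes (%) that have a TSS region, 1 kb to either side, in both lines (dark grey), H82 only (blue), H146 only (orange) or neither (light grey), for the 9 genes, for 6 role groups of 81 other innate sensing genes, and for all protein-coding genes; numbers in the bars are genes. Regions in both lines are found at 11 of 12 adaptors, kinases and ligases and at 12 of 22 interferon-stimulated genes and chemokines.

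Of the pathway genes with a TSS region in H82 only, AIM2, an inflammasome sensor of DNA, had the most extensive one, 1755 bp over 87.7% of the 2 kb, and its window held 25 regions in H82 against 5 in H146. SLC19A1, a folate carrier that also imports cyclic dinucleotides, had a window covered at 35.0% in H82 and 10.4% in H146. OAS2 and IFNAR2, a double-stranded RNA sensor and an interferon receptor chain, had a region of 200 bp each near the TSS, and that at the chemokine gene CCL2 was 257 bp. In H146 only, CXCL8 (interleukin-8) had 532 bp, CXCL9 221 bp, and the antiviral gene ZC3HAV1 had 1493 bp. By the TSS of the main transcript, SLC19A1, IFNAR2 and ZC3HAV1 had a region in both lines and AIM2 in neither. The calls that stood under both TSS definitions were thus OAS2, CCL2, CXCL8 and CXCL9. With regions of at least 500 bp only, CXCL8 kept its class, and OAS2, CCL2 and CXCL9 had no TSS region in either line. The main transcript also placed CXCL11 in H82 only, and the antiviral genes MX1 and IFITM1 in H146 only.

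By 4 covered shares, those of the 2 kb around the TSS and of the whole window in each line, the pathway gene nearest to CGAS was CCL2, at a distance of 6.37 percentage points, with 12.8% (H82) and 0% (H146) around the TSS and 1.33% and 0.710% over the window. The nearest to STING1 was IFNAR2, at 24.8 points, with 10.0% and 0% around the TSS and 8.35% and 3.10% over the window. No gene of the pathway list thus had shares close to those of STING1.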

How the data were processed

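ATAC-seq libraries of H82 and H146 cells were processed by the authors, per the study's methods and the processing notes: paired reads were trimmed with Trim Galore 0.4.4 and aligned to hg38 with Bowtie2 2.3.4, duplicates were removed with Picard, enriched regions were called per library with MACS2, blacklisted regions were dropped, and the regions of all libraries of a line within 500 bp were merged. The methods place 3 H146 controls in one batch and 1 control with the 3 treated libraries in another. The deposited values are region starts (counted from 0) and ends in bp, without counts, so the number of unused columns with values per sample is 0 and depth is unknown. Merging joins neighbouring sites, and pooling lists a region called in any library.

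Regions were intersected with GENCODE release 44 in Python 3 with numpy, in windows of 1 kb around the gene 5′ end and of the gene body with 50 kb flanks. Overlap required 1 bp. The classification of overlaps differed from that of bedtools for 0 regions, and the interval arithmetic was tested on simulated data. Coordinates are 1-based, and 2 mitochondrial regions were left out. The genome build of the annotation and sequence matches the files. The genes, the gene lists and the motifs were chosen with earlier results of these data known. Named were the 9 genes, pathway genes with a TSS region in 1 line only, the nearest pathway gene by covered shares, and neighbours within 1 kb of a TSS or under the widest region. Other neighbours (DDX43, OOEP, MTO1, SMIM33, DNAJC18, UBE2D2, ECSCR and those near CXCL10), the 4 interferon genes, MX1 and IFITM1 were named after their values were seen. Some marker genes and 1 sequence are not reported here. Alternatives were windows, flanks, region width, overlap rule, TSS definition and a division of H82 shares by the ratio of covered bases.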

Additional observations from a re-analysis of the deposited data

How the results depend on the processing

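The values rest on 1 pooled list per line, and depth, library number and treatment could not be separated from the line. No paired analysis was possible because the atlases hold no value per library and no result comes from a test. STING1 had a TSS region in H82 only under all 6 definitions tried, and CGAS under 4 of them. With a TSS window of 5 kb, 3 genes were in H82 only, 1 in H146 only (CXCL10) and 1 in neither. With 10 kb, 8 were in both lines, 1 in H82 only (STING1) and 0 in neither. With regions of at least 500 bp, 1 gene (STING1) and 3 pathway genes had a TSS region in H82 only. These were not the same pathway genes as in the main setting. Of those, AIM2 alone stayed in H82 only, and SLC19A1, OAS2, IFNAR2 and CCL2 had no TSS region in either line. With the TSS of the main transcript, added after the data were seen, 3 pathway genes were in H82 only and 4 in H146 only. By the 5′ end of the gene these counts were 5 and 3, so the order of the lines turned around.

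The number of genes with the larger covered share in H82 ranged from 4 to 7. The median difference was 1.18 points with flanks of 10 kb, 0.696 with 100 kb and 0.568 with regions over 1 kb from any protein-coding TSS. It reversed to -0.0226 when H82 shares were divided by the ratio of covered bases, 1.20, which lowers every H82 share. It was 0.186 without any 1 of CGAS, IFIH1, STING1 or CXCL10, and 0.323 to 0.513 without any other gene. Requiring an overlap of 50% of both regions lowered the shared part to 49.5% of H82 and 56.2% of H146 regions.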
